A study of Mus musculus with 12 samples.

Results

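The miR-106b/93/25 cluster is a group of 3 microRNA (miRNA) hairpins that lie together inside Mcm7, the gene of a subunit of the helicase that unwinds DNA for replication. Its mature products were described here by 5 arms, chosen by a rule of names that uses no measured value, though the cluster was picked with earlier results of these data known: mmu-miR-106b-5p, mmu-miR-106b-3p, mmu-miR-93-5p, mmu-miR-25-3p and mmu-miR-25-5p. They are 5 of the 1519 mature arms in the table, and all 5 were among the 590 arms that reached 1 CPM (reads of an arm, scaled so that each library sums to the same total) in 3 or more libraries, which was the condition for testing. The other arm of the miR-93 hairpin, miR-93-3p, was not a member and is given only for comparison. The libraries came from skin of C57BL/6 mice aged 6-8 weeks that was left unirradiated (control, 0 mJ/cm2) or exposed to 90, 180 or 360 mJ/cm2 of ultraviolet B (UVB), the band of light behind sunburn, with 3 small RNA libraries at each dose and 12 in all. The labels name no genetic change and no other agent in any group. Nor do they state that libraries sharing a dose were separate animals. The p-values therefore set differences between doses against the spread among these libraries only, and that spread may be technical.

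A miRNA hairpin is cut by Drosha and Dicer into a short duplex. A strand of it, the guide, is usually loaded into Argonaute and retained, while the partner is usually lost, so the 2 arms of a hairpin reach very different levels. The guide recognises mRNAs through its seed, bases 2 to 8 from its 5′ end. The miR-106b/93/25 cluster and its relatives in the miR-17/92 and miR-106a/miR-363 clusters are known for repressing brakes on the cell cycle and on cell death, such as Cdkn1a and Bcl2l11, and are linked to E2F-driven proliferation.

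The mature sequences are shown because the seed decides which relatives a member can be compared with. RefSeq sequences (assembly GRCm38.p6) were found for all 15 arms looked up. They are printed 5′ to 3′, and the capitals mark the seed.
miR-106b-5p: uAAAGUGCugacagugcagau
miR-93-5p: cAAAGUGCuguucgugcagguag
miR-17-5p: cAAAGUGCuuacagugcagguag
miR-20a-5p: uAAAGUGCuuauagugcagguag
miR-106a-5p: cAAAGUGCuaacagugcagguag
miR-25-3p: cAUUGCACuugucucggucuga
miR-92a-3p: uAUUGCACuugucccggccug
miR-106b-3p: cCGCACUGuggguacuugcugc
miR-25-5p: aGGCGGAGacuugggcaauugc
The members miR-106b-5p and miR-93-5p carry the seed AAAGUGC, which 7 RefSeq mouse arms share. In miR-25-3p the seed is AUUGCAC, which 6 arms share. The seeds of miR-106b-3p and miR-25-5p occurred in no other RefSeq mouse arm. Compared base by base from the 5′ end, miR-106b-5p differed from miR-17-5p, miR-20a-5p and miR-106a-5p at 3 of 21 positions each and from miR-93-5p at 5. The distance of miR-25-3p from miR-92a-3p was 3 of 21 positions. How many mismatches were allowed when reads were assigned is not known here, so reads shared between such relatives were not tested for.

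The hairpins are shown because the results turn on which arm of a hairpin was recovered. In each, the first run of capitals is the 5p arm and the second the 3p arm.
Mir106b: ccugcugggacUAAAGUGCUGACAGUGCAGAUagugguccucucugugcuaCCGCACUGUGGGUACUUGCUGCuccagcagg
Mir93: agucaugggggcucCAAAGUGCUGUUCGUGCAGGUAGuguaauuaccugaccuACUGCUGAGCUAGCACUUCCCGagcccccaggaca
Mir25: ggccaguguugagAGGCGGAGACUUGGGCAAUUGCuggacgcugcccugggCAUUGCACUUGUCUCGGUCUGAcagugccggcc
On GRCm38.p6 they lie on the minus strand at chr5:138165737-138165818 (Mir106b, 82 bases), chr5:138165523-138165610 (Mir93, 88 bases) and chr5:138165321-138165404 (Mir25, 84 bases). In the direction of transcription Mir106b is followed after 126 bases by Mir93 and after a further 118 bases by Mir25, so the cluster spans 498 bases. In GENCODE vM21 all 3 hairpins lie in intron 13 of the principal transcript of Mcm7, which has 15 exons. The gene extends over chr5:138164583-138172422 and that intron over chr5:138165162-138165909. The submitters' processing notes name the build mm9, and no coordinate of that build is used here.

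The libraries held 3164422 to 8063815 miRNA reads, so that 1 read was worth 0.124 to 0.316 CPM. Control replicates 1, 2 and 3 held 8063815, 6044080 and 3764459 reads, and the irradiated libraries 3164422 to 5060781. An upper limit for an arm with no read, 3 reads, was worth 0.372 to 0.948 CPM. No epithelial, myeloid, endothelial, skeletal muscle or red blood cell marker arm that the table lists was at 0 in any library. The summed level of 7 epithelial markers was 81219 to 94933 CPM in the controls and 11646 to 36482 CPM at 360 mJ/cm2, where all 7 fell. Replicate 3 of 90 mJ/cm2 (28121 CPM) and replicate 1 of 180 mJ/cm2 (41085 CPM) stood apart from the other libraries of their doses in this sum, and results are given with and without these libraries where a call changed. They are named below as the libraries low in epithelial markers, which means low for their dose. The libraries of 360 mJ/cm2 were kept in those fits. The sum of 5 myeloid markers was 458 to 622 CPM in the controls and 3399 to 4691 CPM at 360 mJ/cm2, where all 5 rose. Endothelial markers summed to 8303 to 8774 CPM in the controls and 21891 to 25249 CPM at 360 mJ/cm2, where 1 of 2 rose. For 4 skeletal muscle arms the sums were 193259 to 228888 and 153621 to 202440 CPM, and 1 of the 4 fell. At 90 and 180 mJ/cm2, where miR-106b-5p was also called, 3 of 7 epithelial and 2 of 4 muscle arms fell at each dose, and 2 and 4 of 5 myeloid arms rose. Replicate 3 of 180 mJ/cm2 stood apart in the muscle sum, at 82046 CPM against 164886 and 187147 CPM. Without it the changes of miR-106b-5p and miR-25-5p at 180 mJ/cm2 were -1.71 (limma adjusted p = 0.0158) and -1.68 (limma adjusted p = 0.0192). For 5 red blood cell arms the sums were 1127 to 3797 CPM in the controls and 1885 to 2422 CPM at 360 mJ/cm2, which overlap. Among these arms miR-486a-5p and miR-486b-5p had the same values in every group, so that these values entered the sums more than once. In bulk skin, fewer cells of a type and less RNA per cell cannot be told apart, and the part of these shifts in the results for the cluster was not tested.

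In unirradiated skin the 5 arms covered a wide range of levels. The mean was 1900 ± 205 CPM for miR-25-3p, 743 ± 52.4 CPM for miR-93-5p, 367 ± 56.7 CPM for miR-106b-3p, 296 ± 167 CPM for miR-106b-5p and 13.5 ± 1.02 CPM for miR-25-5p (SD, n = 3 each). The libraries of neighbours in this order did not overlap, except for miR-106b-3p and miR-106b-5p, whose order differed between control libraries. At 90 and 180 mJ/cm2 the libraries of miR-93-5p and miR-106b-3p overlapped as well. Over all 12 libraries miR-25-3p ranked 51 of 1519 arms by mean CPM, miR-93-5p 87, miR-106b-3p 103, miR-106b-5p 151 and miR-25-5p 361. Ligation favours some RNA ends, so an order between arms partly reflects the library kit. Each arm is better compared with itself across doses.

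**Figure D1:**
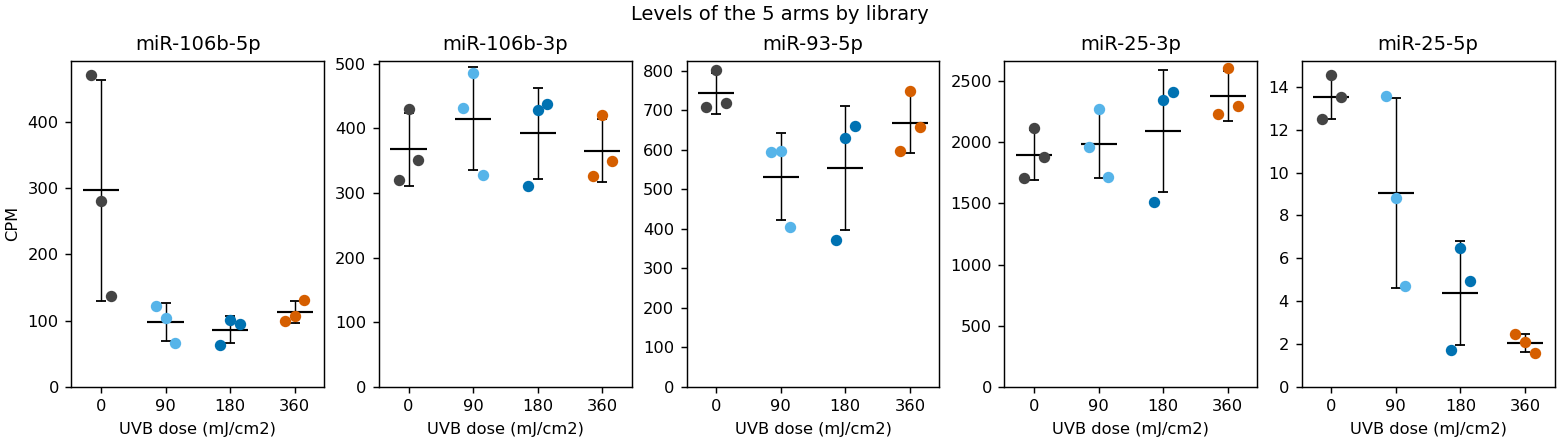
Level of each of the 5 arms in CPM (vertical axis, from 0, its own scale in each panel) against UVB dose in mJ/cm2, with points for libraries and bars for the mean and SD of 3 libraries. The panel of miR-106b-5p shows control libraries spread from 138 to 471 CPM above all irradiated ones, while miR-25-5p reaches 2.04 CPM on average at 360 mJ/cm2.

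Irradiated skin held less of 2 arms of the cluster, miR-106b-5p and miR-25-5p, which belong to different hairpins and have different seeds. The 5p arm of miR-106b was lower at all 3 doses with no order between them. The scarce 5p arm of miR-25 was lower at 180 and 360 mJ/cm2, with group means that descended over the doses while the libraries of neighbouring doses overlapped. The other arms of these hairpins, miR-106b-3p and miR-25-3p, did not pass the test at any dose, and neither did miR-93-5p. Against control the test (limma on log2(CPM + 1), adjusted over 590 arms, threshold 0.05 for a call) called 1 of the 5 members at 90 mJ/cm2, where 25.6% of all tested arms were called. It called 2 of 5 at 180 mJ/cm2, with 30.7% of all arms, and 2 of 5 at 360 mJ/cm2, with 39.8% of all arms. With edgeR and with DESeq2 on recovered reads the number of members called was also 1, 2 and 2. Of the 590 arms, edgeR called 172, 199 and 254 at the 3 doses, and DESeq2 177, 198 and 250. The median log2 fold change of all tested arms was 0.04, 0.06 and 0.02 at the 3 doses. The 3 comparisons share the same control libraries and are not independent of each other. Where libraries of a dose are said not to overlap the controls, this is description only. The share of the 590 arms that separate in this way is not given here. An exact test of 3 against 3 libraries cannot give a p under 0.1.

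The 5p arm miR-106b-5p stood at 471, 280 and 138 CPM in the 3 control libraries. Their depths fell in the same order (8063815, 6044080 and 3764459 reads), and the part of depth in this result was not tested. At 90 mJ/cm2 it stood at 122, 104 and 65.7 CPM, at 180 mJ/cm2 at 62.9, 101 and 94.6 CPM, and at 360 mJ/cm2 at 99.8, 107 and 131 CPM. All 9 irradiated libraries were below the lowest control, but the highest of them, at 131 CPM, was close to that control, and the controls differed among themselves more than the irradiated libraries did. The group means were 296 ± 167, 97.5 ± 29.0, 86.2 ± 20.4 and 113 ± 16.2 CPM (SD, n = 3 each). On the log2 scale miR-106b-5p fell by 1.47 (SE 0.36, limma adjusted p = 0.0112) at 90 mJ/cm2, by 1.63 (SE 0.36, adjusted p = 0.0054) at 180 mJ/cm2 and by 1.23 (SE 0.36, adjusted p = 0.0138) at 360 mJ/cm2. Among the 590 arms these changes ranked 16, 16 and 54 from the lowest. The size rested in part on control replicate 1. Without that library the change was -1.05 at 90 mJ/cm2 (limma adjusted p = 0.0595) and -0.81 at 360 mJ/cm2 (adjusted p = 0.0796), both above the threshold. At 360 mJ/cm2 the call was also lost without replicate 1 of that dose (-1.15, adjusted p = 0.0527). At 90 mJ/cm2 it was lost without the libraries low in epithelial markers (-1.21, adjusted p = 0.0505). At 180 mJ/cm2 the call held without each library in turn, with a highest adjusted p of 0.0284, and without the libraries low in epithelial markers (-1.42, adjusted p = 0.0167).

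The 3p arm of the same hairpin, miR-106b-3p, stood at 320, 430 and 352 CPM in the controls and at 431, 486 and 328 CPM at 90 mJ/cm2. It stood at 311, 429 and 438 CPM at 180 mJ/cm2 and at 327, 420 and 350 CPM at 360 mJ/cm2. The libraries of every dose overlapped the controls. The log2 fold changes were 0.17 (95% interval -0.30 to 0.63), 0.09 (-0.37 to 0.55) and -0.0045 (-0.47 to 0.46). These intervals hold no change of the size seen for miR-106b-5p, although both arms come from the same hairpin.

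The abundant 5p arm miR-93-5p has the same seed as miR-106b-5p. Its levels were 707, 803 and 718 CPM in the controls, 594, 597 and 404 CPM at 90 mJ/cm2, 372, 629 and 659 CPM at 180 mJ/cm2 and 598, 750 and 658 CPM at 360 mJ/cm2. All libraries of 90 and 180 mJ/cm2 were below all controls, while those of 360 mJ/cm2 overlapped the controls. The log2 fold changes were -0.50, -0.47 and -0.16 (SE 0.24 each), with limma adjusted p of 0.137, 0.151 and 0.635, so none passed the test.

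The 3p arm miR-25-3p, the most abundant member, stood at 1706, 2114 and 1879 CPM in the controls and at 1964, 2272 and 1719 CPM at 90 mJ/cm2. It stood at 1514, 2348 and 2410 CPM at 180 mJ/cm2 and at 2230, 2611 and 2297 CPM at 360 mJ/cm2. The libraries of 360 mJ/cm2 were all above the highest control, and those of the lower doses overlapped the controls. The log2 fold changes were 0.06, 0.11 and 0.33 (SE 0.21 each), with limma adjusted p of 0.855, 0.722 and 0.235. This result depended on scaling at 360 mJ/cm2. The abundant arm miR-21a-5p took 2.01 to 2.69% of reads in the controls and 17.8 to 19.3% at 360 mJ/cm2. When it and miR-1a-3p were left out of the library totals, the median of all arms moved to 0.11, 0.15 and 0.22 at the 3 doses. The change of miR-25-3p at 360 mJ/cm2 was then 0.59 (limma adjusted p = 0.033), against that median of 0.22. Under the same scaling the values of miR-106b-3p and miR-93-5p at 360 mJ/cm2 turned positive (0.26 and 0.11) without passing the test, and miR-106b-5p and miR-25-5p remained called in all comparisons with control in which they had been.

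The minor arm miR-25-5p stood at 12.5, 14.6 and 13.5 CPM in the controls, which was 51 to 101 reads per library. It stood at 13.6, 8.83 and 4.72 CPM at 90 mJ/cm2, at 1.73, 6.50 and 4.94 CPM at 180 mJ/cm2 and at 2.46, 2.08 and 1.58 CPM at 360 mJ/cm2. The controls were close together, replicate 1 of 90 mJ/cm2 was still within their range, and all libraries of 180 and 360 mJ/cm2 were below all controls. Reads per library at 360 mJ/cm2 numbered 5 to 10, above the limit of 3 reads, and the exact Poisson 95% interval of the lowest count was 1.62 to 11.7 reads, which covers counting error only. The log2 fold change was -0.63 at 90 mJ/cm2 (SE 0.38, limma adjusted p = 0.243). The arm fell by 1.55 at 180 mJ/cm2 (adjusted p = 0.0086) and by 2.27 at 360 mJ/cm2 (adjusted p = 0.00026). At 360 mJ/cm2 this ranked 13 from the lowest of the 590 arms, and both calls held without each library in turn. Its lowest library at 180 mJ/cm2, replicate 1, was the one low in epithelial markers at that dose. Without it and replicate 3 of 90 mJ/cm2 the change at 180 mJ/cm2 was -1.12 (adjusted p = 0.0158). The pseudocount of 1 understates the change of so scarce an arm.

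**Figure D2:**
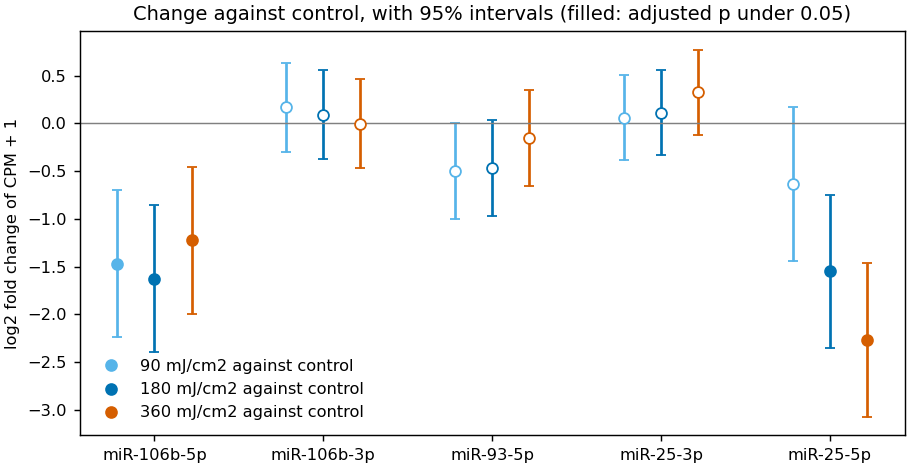
Change of each arm against control (vertical axis, log2 fold change of CPM + 1) with 95% intervals from the limma fit, with 3 doses per arm; filled points have an adjusted p under 0.05. The filled points are those of miR-106b-5p at all 3 doses, between -1.63 and -1.23, and those of miR-25-5p at 180 and 360 mJ/cm2, at -1.55 and -2.27.

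Between irradiated groups, miR-25-5p was the member that moved. From 90 to 360 mJ/cm2 it fell by 1.63 (limma adjusted p = 0.017), with no overlap between the libraries, and 1 of 5 members was called where 11.2% of all arms were. This call was lost without replicate 1 of 90 mJ/cm2 (-1.31, adjusted p = 0.13), without replicate 2 of that dose (-1.60, adjusted p = 0.0738) or without replicate 3 of 360 mJ/cm2 (-1.52, adjusted p = 0.0935). From 90 to 180 mJ/cm2 limma called 0 of 5 members and 0% of all arms, with 1 member, miR-25-5p, at an unadjusted p under 0.05. Both edgeR and DESeq2 called 0 members there too, and 0 of the 590 arms. From 180 to 360 mJ/cm2 limma called 0 members, with 0 at an unadjusted p under 0.05, where 4.07% of all arms were called. Both count tools called 0 members there, where edgeR called 0 and DESeq2 64 of the 590 arms. Each had 1 member, miR-25-5p, under an unadjusted p of 0.05, where 131 and 132 of the 590 arms were. Without replicate 3 of 90 and replicate 1 of 180 mJ/cm2, miR-25-5p fell by 1.14 in this step (limma adjusted p = 0.0263). The libraries of 360 mJ/cm2, all lower in epithelial markers than that replicate of 180 mJ/cm2, stayed in. Per 100 mJ/cm2 of dose, the log2 level of miR-25-5p fell by 0.64 (SE 0.10, limma adjusted p = 0.00037), where a slope was called for 30% of all arms. The slope of miR-106b-5p was -0.26 (adjusted p = 0.174), and the other 3 members were not called.

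The share of each hairpin's reads held by an arm does not depend on the library total. In the controls miR-106b-5p held 59.5, 39.5 and 28.1% of the miR-106b reads. At 90 mJ/cm2 it held 22.1, 17.7 and 16.7%, at 180 mJ/cm2 16.8, 19.1 and 17.8%, and at 360 mJ/cm2 23.4, 20.3 and 27.2%. The 5p arm was thus the major product in 1 control library and the minor product in the other 11 libraries. The group means were 42.4 ± 15.9, 18.8 ± 2.89, 17.9 ± 1.12 and 23.6 ± 3.45% (SD, n = 3 each). The widest Wilson 95% interval of a library was 4.47 percentage points, so counting error is small beside the spread of the controls.

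The miR-25 hairpin was read almost wholly from its 3p arm at every dose. The 5p arm held 0.729, 0.684 and 0.716% of its reads in the controls, 0.688, 0.387 and 0.274% at 90 mJ/cm2, 0.114, 0.276 and 0.205% at 180 mJ/cm2 and 0.110, 0.0797 and 0.0687% at 360 mJ/cm2. The controls differed by little, and all libraries of 180 and 360 mJ/cm2 were below all controls. In the miR-93 hairpin the minor arm miR-93-3p held 0.782 ± 0.129% in the controls and 0.859 ± 0.246, 1.10 ± 0.409 and 0.542 ± 0.330% at the 3 doses (SD, n = 3 each). Its libraries of every dose overlapped the controls in CPM, and it was not called in any comparison.

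A set of 7 log2 ratios within libraries was compared over the 4 groups with an exact permutation F test (369600 arrangements, p adjusted over the 7). The log2 ratio of miR-106b-5p to miR-106b-3p averaged -0.47 in the controls and -2.11, -2.19 and -1.69 at the 3 doses (exact permutation adjusted p = 0.0044). Its change at 360 mJ/cm2, -1.22, was -0.71 without control replicate 1. The log2 ratio of miR-25-3p to miR-25-5p averaged 7.03 in the controls and 7.72, 8.69 and 9.62 at the 3 doses (exact permutation adjusted p = 0.00091). Ratios between arms of different hairpins were also compared. The log2 ratio of miR-25-3p to miR-93-5p rose from 1.35 to 1.91, 1.93 and 1.83 (exact permutation adjusted p = 0.015). That of miR-25-3p to miR-106b-5p rose from 2.84 to 4.37, 4.58 and 4.40 (exact permutation adjusted p = 0.015). For miR-93-5p to miR-106b-5p the exact permutation adjusted p was 0.0513, above the threshold. Without the libraries low in epithelial markers, the ratios of miR-106b-5p to miR-106b-3p and of miR-25-3p to miR-106b-5p had an exact permutation adjusted p of 0.0696 each.

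**Figure D3:**
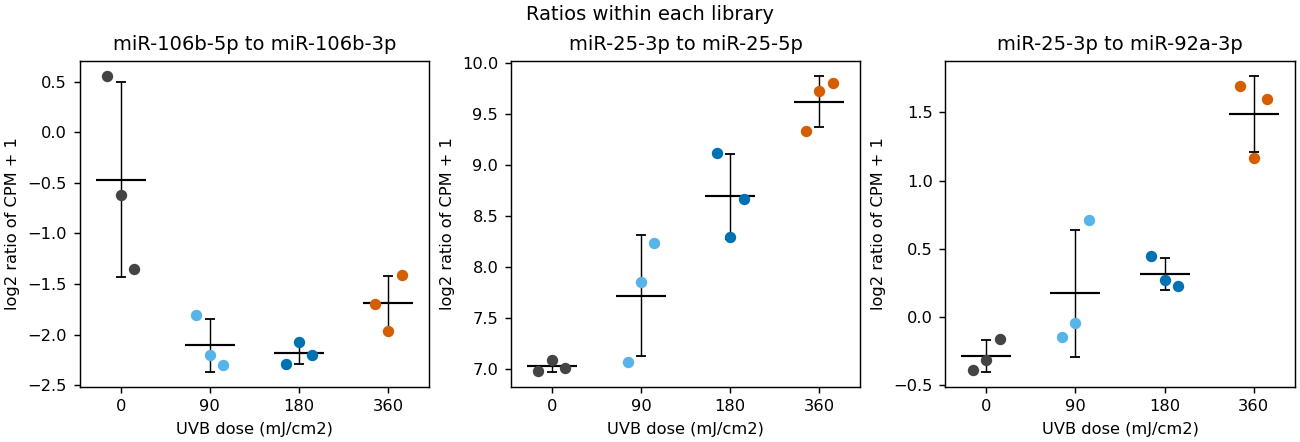
Log2 ratio of CPM + 1 within each library (vertical axis) against UVB dose in mJ/cm2 for 3 pairs of arms, with points for libraries and bars for the mean and SD of 3 libraries. The ratio of miR-25-3p to miR-25-5p rises from a mean of 7.03 in the controls to 9.62 at 360 mJ/cm2, and that of miR-25-3p to miR-92a-3p from -0.29 to 1.49.

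Whether such shifts between arms were common was asked of every hairpin with both arms tested, 166 in all, a comparison added after the data were seen. Over the 3 doses, the log2 ratio of 5p to 3p differed from control for 53 hairpins (31.9%, limma F test). Among them miR-25 had the second smallest p (rank 2, adjusted p = 8.2e-05), miR-106b ranked 20 (adjusted p = 0.0113) and miR-93 ranked 74 and was not called (adjusted p = 0.118). At 360 mJ/cm2 the change of miR-25, -2.59 (SE 0.28, limma adjusted p = 1.4e-05), was the lowest of the 166, against a median of 0.14, and 23.5% of hairpins were called. Its change was -1.66 at 180 mJ/cm2 (adjusted p = 0.0021), where 19.3% were called, and -0.69 at 90 mJ/cm2 (adjusted p = 0.101), where 22.3% were. From 90 to 360 mJ/cm2 it was -1.90 (adjusted p = 0.00061), again the lowest of the 166, with 11.4% called. The changes called at 180 and 360 mJ/cm2 and between 90 and 360 mJ/cm2 held without each library in turn.

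The ratio of miR-106b changed by -1.64 at 90 mJ/cm2 (limma adjusted p = 0.0093), by -1.72 at 180 mJ/cm2 (adjusted p = 0.0061) and by -1.22 at 360 mJ/cm2 (adjusted p = 0.0258). These changes ranked 4, 3 and 12 from the lowest of the 166. The first was lost without control replicate 1 (-1.13, adjusted p = 0.0506) and without the libraries low in epithelial markers (-1.54, adjusted p = 0.0616). The last was lost without control replicate 1 (-0.71, adjusted p = 0.138) and without replicates 1 (-1.22, adjusted p = 0.0644) or 2 (-1.09, adjusted p = 0.0944) of 360 mJ/cm2. The change at 180 mJ/cm2 held without each library in turn.

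**Figure D4:**
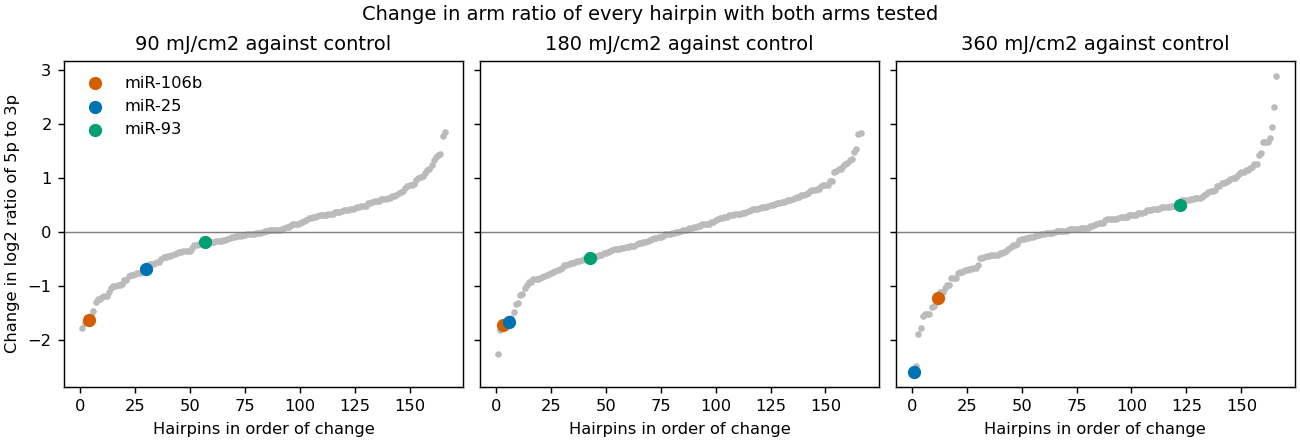
Change against control in the log2 ratio of 5p to 3p arm (vertical axis) of the 166 hairpins with both arms tested, placed in order of change (horizontal axis), with 1 panel per dose and the 3 hairpins of the cluster in colour. The point of miR-25 moves from rank 30 at 90 mJ/cm2 to rank 6 at 180 mJ/cm2 and rank 1, at -2.59, at 360 mJ/cm2, and miR-106b lies at ranks 4, 3 and 12.

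The listed relatives with the seed of miR-106b-5p and miR-93-5p come from clusters on chromosomes 14 and X. A further arm with this seed, miR-6383, was not analysed here. All 4 relatives in the list, miR-17-5p, miR-20a-5p, miR-20b-5p and miR-106a-5p, were tested, and at each dose 1 of 4 fell. Their median log2 fold changes were -0.64, -0.40 and -0.37. Of all 590 tested arms, 73, 83 and 116 fell at the 3 doses. The relative that fell was the scarce miR-106a-5p, at 9.43 ± 1.01 CPM in the controls and 4.78 ± 0.989, 5.46 ± 0.268 and 4.88 ± 1.04 CPM at the 3 doses (SD, n = 3 each). Its changes were -0.86, -0.69 and -0.84 (limma adjusted p = 0.0186, 0.0462 and 0.0134). The call at 180 mJ/cm2 was lost in 10 of the 12 fits that left out a library (adjusted p up to 0.135) and the call at 90 mJ/cm2 in 4 (up to 0.0798). The call at 360 mJ/cm2 was lost without replicate 1 of that dose (-0.72, adjusted p = 0.0625) and with totals that omit miR-21a-5p and miR-1a-3p (-0.63, adjusted p = 0.0606). The calls at 90 and 180 mJ/cm2 were also lost with no filter on low values (adjusted p = 0.0607 and 0.141). Without the libraries low in epithelial markers both were lost as well (-0.78 and -0.66, limma adjusted p = 0.0848 and 0.108).

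The abundant relatives with this seed gave smaller values. Levels of miR-17-5p were 508, 526 and 485 CPM in the controls, 345, 388 and 214 CPM at 90 mJ/cm2, 241, 441 and 448 CPM at 180 mJ/cm2 and 310.4, 407 and 356 CPM at 360 mJ/cm2. All its irradiated libraries were below all controls, with changes of -0.72, -0.48 and -0.51 (limma adjusted p = 0.055, 0.182 and 0.142). At 90 mJ/cm2 edgeR and DESeq2 called it, which made 2 of 4 relatives. Replicate 3 of 90 mJ/cm2 and replicate 1 of 180 mJ/cm2 were its lowest libraries, as they were for miR-93-5p and miR-20a-5p. Set against these relatives in the same library, the summed miR-106b-5p and miR-93-5p over the summed miR-17-5p and miR-20a-5p gave log2 ratios of -0.35, -0.47, -0.70 and -0.42 from control to 360 mJ/cm2 (exact permutation adjusted p = 0.113). That difference did not pass the test. Without control replicate 3 the difference over the 4 groups did pass (exact permutation adjusted p = 0.0434). The change at 360 mJ/cm2 against control, not tested alone, was then -0.18.

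The relatives with the seed of miR-25-3p moved in different directions. Of 5 in the list, 4 were in the table and tested, and the median change was -0.27, -0.46 and -0.74 at the 3 doses. At 90 mJ/cm2 1 rose, and at 360 mJ/cm2 2 fell and 1 rose. Of all 590 tested arms, 78 rose at 90 mJ/cm2, and 116 fell and 119 rose at 360 mJ/cm2. At 180 mJ/cm2 limma called 0 of 4, with 0 at an unadjusted p under 0.05, and edgeR and DESeq2 called 0, with 1 each. The main relative, miR-92a-3p from the miR-17/92 and miR-106a/miR-363 clusters, stood at 2230, 2624 and 2098 CPM in the controls, 2175, 2336 and 1051 CPM at 90 mJ/cm2, 1110, 1944 and 2061 CPM at 180 mJ/cm2 and 689, 1162 and 758 CPM at 360 mJ/cm2. Its libraries at 360 mJ/cm2 were all below the controls, and it fell by 1.45 (limma adjusted p = 0.0018), a call that held without each library in turn.

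Among the scarcer relatives, miR-92b-3p went from 12.5 ± 2.50 to 6.11 ± 0.494 CPM at 360 mJ/cm2 (SD, n = 3 each) and fell by 0.91 (limma adjusted p = 0.0109), also without each library in turn. The relative that rose, miR-363-3p, stood at 4.05 ± 0.393 CPM in the controls and 9.71 ± 5.74 and 9.05 ± 1.73 CPM at 90 and 360 mJ/cm2 (SD, n = 3 each). Its changes were 0.96 and 0.98 (limma adjusted p = 0.0385 and 0.0225), and the calls were lost in 5 and 3 of the 12 fits that left out a library (adjusted p up to 0.168 and 0.0836). The first was also lost with no filter on low values (adjusted p = 0.0752). The fourth, miR-32-5p, did not pass the test at any dose.

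The balance between miR-25-3p and miR-92a-3p, which share a seed, therefore changed within the libraries. The log2 ratio of miR-25-3p to miR-92a-3p was -0.39, -0.31 and -0.16 in the controls, -0.15, -0.040 and 0.71 at 90 mJ/cm2, 0.45, 0.27 and 0.23 at 180 mJ/cm2 and 1.69, 1.17 and 1.60 at 360 mJ/cm2. All controls had more miR-92a-3p than miR-25-3p, and all libraries of 180 and 360 mJ/cm2 had more miR-25-3p. The group means were -0.29, 0.17, 0.32 and 1.49 (exact permutation adjusted p = 0.0044, largest adjusted p without a library 0.0126). These ratios do not depend on the library totals.

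**Figure D5:**
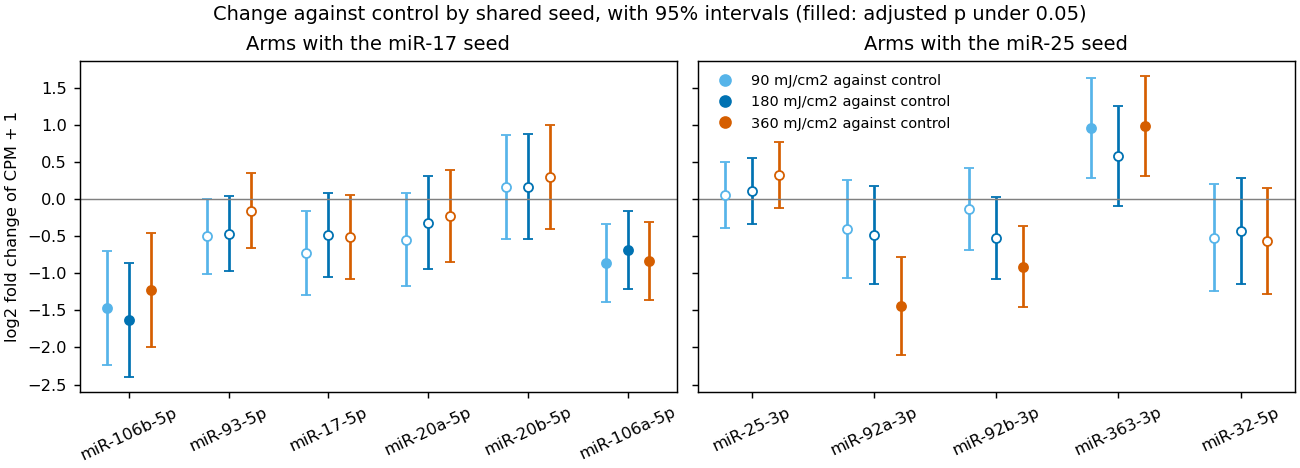
Change against control (vertical axis, log2 fold change of CPM + 1, with 95% intervals from the limma fit) of members and relatives with the miR-17 seed (left) and the miR-25 seed (right), with 3 doses per arm; filled points have an adjusted p under 0.05. At 360 mJ/cm2 miR-25-3p lies at 0.33 and miR-92a-3p at -1.45, and in the left panel miR-106b-5p lies below miR-93-5p at each dose.

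Of 16 other arms of the miR-17/92 and miR-106a/miR-363 transcripts, 12 were in the table and 7 were tested. Of those 7, 2 fell at 90 mJ/cm2, where 73 of all 590 tested arms fell. At each of the higher doses 1 of the 7 fell, where 83 and 116 of the 590 fell. The medians of the 7 were -0.32, -0.34 and -0.19. The arm that fell at all doses was miR-18a-5p (-1.39, -1.10 and -0.95, limma adjusted p = 0.0119, 0.0289 and 0.0436). Its calls were lost in 1, 3 and 5 of the 12 fits that left out a library (adjusted p up to 0.0649, 0.144 and 0.166), control replicate 1 among them at each dose (-1.19, -0.90 and -0.75). At 180 mJ/cm2 the call was also lost without the libraries low in epithelial markers (-0.71, limma adjusted p = 0.14). At 360 mJ/cm2 the call was also lost with totals that omit miR-21a-5p and miR-1a-3p (-0.72, adjusted p = 0.122) and with no filter on low values (adjusted p = 0.0723). The other, miR-19b-3p, fell by 0.75 at 90 mJ/cm2 (limma adjusted p = 0.0408), a call lost in 8 of 12 such fits (adjusted p up to 0.182). This call was also lost with no filter on low values (adjusted p = 0.0817) and with those totals (adjusted p = 0.0658). Without the libraries low in epithelial markers it was lost too (-0.62, limma adjusted p = 0.142). With edgeR and DESeq2 3, 2 and 2 of the 7 were called.

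Profiles over the 12 libraries were compared as a description, by Pearson's r of log2(CPM + 1) over 338 arms. The mean profile of miR-106b-5p, miR-93-5p and miR-25-3p was most like those of miR-17-3p (r = 0.91), miR-17-5p (0.89), miR-19b-3p (0.88), miR-18a-5p (0.88) and miR-20a-5p (0.84), all of the miR-17/92 cluster. Within the cluster itself, the r between members ranged from -0.17 for miR-25-3p with miR-25-5p to 0.68 for miR-106b-5p with miR-93-5p. Between the arms of miR-106b r was -0.00025. The libraries share the dose groups, a total scaled to a fixed sum and the marker shifts given above.

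Taken singly after the values were seen, the members had different nearest profiles. For miR-106b-5p these were miR-101a-3p (0.95), miR-101c (0.95) and miR-326-3p (0.93). For miR-93-5p they were miR-17-3p (0.95), miR-20a-5p (0.93) and miR-17-5p (0.91), for miR-25-3p miR-103-3p (0.88), miR-872-5p (0.80) and miR-28a-3p (0.79), and for miR-106b-3p miR-27b-3p (0.84), miR-744-5p (0.79) and miR-423-3p (0.77). For miR-25-5p they were miR-211-5p (0.97), miR-181d-5p (0.95) and miR-872-3p (0.94).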

How the data were processed

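The values are CPM, deposited by the authors in a table of mature miRNA arms, 1519 in 12 libraries. Skin RNA was extracted with Trizol and libraries were made with the NEBNext small RNA kit, per the labels' protocols. The submitters' processing notes name mm9. Not given in the sources used here are the aligner, counter, miRBase release, trimming and time from irradiation to sampling.

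Arms that reached 1 CPM in 3 or more libraries were tested on log2(CPM + 1) by limma-trend (R 4.3.3 with limma 3.58.1). The fit held 12 libraries, a mean per dose and no replicate term. P-values are two-sided, Benjamini-Hochberg adjusted per comparison and held to 0.05. An exact test of 3 against 3 libraries cannot give a p under 0.1, so single arms rest on the fit. CPM steps gave whole reads for 100% of values (tolerance 0.01 reads). These recovered counts gave depth, arm shares, the Poisson and Wilson intervals and the chi-square below. They also entered the alternative scalings and the alternatives with edgeR 4.0.16 and DESeq2 1.42.0. The main test used the CPM. Chi-square over degrees of freedom between libraries of a dose was 147 to 686, so none agreed within sampling noise. The Poisson and Wilson intervals cover counting error only, and reads carry no molecular identifiers. The intervals of fold changes come from the limma fit and its spread among libraries. The cluster, lists and tests were chosen with earlier results of these data known. The members, listed relatives and nearest profiles over arms averaging at least 10 CPM are named. The ratio of arms over all hairpins and the nearest profiles of single members were added after seeing the data.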

Additional observations from a re-analysis of the deposited data

How the results depend on the processing

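Of 775 values of single members under an alternative, 732 kept their direction and side of the threshold, 7 lost their call, 3 gained one and 33 changed sign, none of them a called value. The alternatives were another pseudocount, filter, scaling or tool, fewer groups in the fit, a replicate block, and libraries left out. With a replicate block, fewer groups or a library of an outside dose left out, a fold change between doses keeps its value. Only its p can change. The 732 therefore include values whose direction could not change. Depth limits miR-25-5p most, with 5 to 10 reads per library at 360 mJ/cm2.

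With each library left out, the number of members called ranged from 0 to 1 at 90 mJ/cm2 and from 1 to 2 at 360 mJ/cm2 against control, and from 0 to 1 for 360 against 90 mJ/cm2. Shares of all arms called in these and the following fits are not given here. A changed count of members therefore cannot be told from a general change in calls. Log2 changes that crossed 0, none called, ranged as follows. Against control, miR-25-3p went from -0.043 to 0.16 at 90 mJ/cm2 and from -0.0053 to 0.33 at 180 mJ/cm2, and miR-106b-3p from -0.0044 to 0.25 at 180 mJ/cm2 and from -0.11 to 0.11 at 360 mJ/cm2. For 180 against 90 mJ/cm2, miR-106b-5p went from -0.42 to 0.051, miR-106b-3p from -0.24 to 0.080, miR-93-5p from -0.15 to 0.30 and miR-25-3p from -0.065 to 0.27. For 360 mJ/cm2, miR-106b-5p went from -0.016 to 0.43 against 90 mJ/cm2 and miR-25-3p from -0.0031 to 0.33 against 180 mJ/cm2. Trend slopes went from -0.040 to 0.011 for miR-106b-3p and from -0.054 to 0.024 for miR-93-5p. The change at 360 mJ/cm2 in the log2 ratio of miR-93-5p to miR-106b-5p went from 0.62 to 1.51, and that of the summed ratio to miR-17-5p and miR-20a-5p from -0.18 to 0.015. By the exact permutation test over the 4 groups, both ratios passed without control replicate 3 (adjusted p = 0.0125 and 0.0434). The first also passed without replicate 3 of 360 mJ/cm2 (exact permutation adjusted p = 0.0484).

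Without replicate 3 of 90 and replicate 1 of 180 mJ/cm2 together, limma called 0 members at 90 mJ/cm2 and 1 for 360 against 180 mJ/cm2. There the change of miR-106b-5p from 90 to 360 mJ/cm2 was -0.016 and that of miR-25-3p from 180 to 360 mJ/cm2 -0.0031. The log2 ratios of miR-106b-5p to miR-106b-3p and of miR-25-3p to miR-106b-5p then had an exact permutation adjusted p of 0.0696 over the 4 groups, with fewer arrangements to compare. Their changes at 360 mJ/cm2 against control, not tested alone, were -1.22 and 1.55.

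With totals that omit the 2 dominant arms, miR-21a-5p and miR-1a-3p, the median arm moved as given above and miR-25-3p was also called in the trend (slope 0.16, 2 members called). Values of miR-106b-3p were then 0.26 at 360 mJ/cm2 against control, 0.0052 against 90, 0.068 against 180 and 0.056 in the trend, and those of miR-93-5p 0.11 at 360 mJ/cm2 and 0.059 in the trend. Over irradiated libraries only, the slopes of miR-106b-5p and miR-93-5p were 0.11 and 0.13. The cause of these sign changes was not tested.

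Between same-numbered libraries of different doses the r of deviations from the dose mean was -0.22 to 0.24, with 6 of 18 pairs over 0.1. Between different numbers it was -0.36 to 0.29, with 6 of 36 pairs over 0.1. With 3 libraries per dose these values cannot decide whether the numbers pair libraries. With the replicate block the counts of members called did not change. The calls of miR-106a-5p at 180 mJ/cm2 and miR-18a-5p at 360 mJ/cm2 were lost (limma adjusted p = 0.0618 each). For the log2 ratios of miR-25-3p to miR-106b-5p and to miR-93-5p the exact permutation test over the 4 groups gave an adjusted p of 0.0608. Their changes at 360 mJ/cm2 against control, not tested alone, were 1.55 and 0.48.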
